A study of Mus musculus with 52 samples.

Results

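Trimethylation of histone H3 at lysine 4 (H3K4me3) was compared with dimethylation of the same residue (H3K4me2) in F/F fibroblasts, by gene and by peak. The members are the 6 F/F libraries labelled with one or the other mark, 3 for H3K4me3 and 3 for H3K4me2, of 52 samples in the series. F/F cells are an immortalized line of fibroblasts from mouse embryos. LoxP sites flank part of both alleles of their MLL2 gene (Kmt2d), itself an H3K4 methyltransferase, and the libraries are from untreated cells (0 h of tamoxifen). FC/FC cells, which served here as libraries that took no part in choosing genes, are the same cells after 24 h of tamoxifen, which excises both MLL2 alleles, so excision and drug treatment go together in them. One H3K4me2 FC/FC library (replicate 1) is labelled with the catalogue number of the H3K4me1 antibody. H3K4me1 libraries of F/F cells (n = 3) were read beside them. The design text gives 3 independent replicates for each experiment.

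The SET1 and MLL enzymes, in complexes that share WDR5, RBBP5, ASH2L, and DPY30, add methyl groups to H3K4 one after another, and the LSD1 and KDM5 families take them off. Trimethylation is known to sit around the start sites of active genes and of CpG-rich promoters. Dimethylation also covers the flanks of those starts and many enhancers, where monomethylation is the more usual state.

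The sequences before the start sites of the genes at either end of the comparison are shown first because the promoters of the groups differed in their content of CG dinucleotides. Each run is the 250 bases before the transcription start site (TSS) on the gene's own strand, from the RefSeq genome GRCm38.p6 (mm10), with CG in capitals. Psma2, Gadd45g, and Id3 had the largest excess of H3K4me3 over H3K4me2.
Psma2: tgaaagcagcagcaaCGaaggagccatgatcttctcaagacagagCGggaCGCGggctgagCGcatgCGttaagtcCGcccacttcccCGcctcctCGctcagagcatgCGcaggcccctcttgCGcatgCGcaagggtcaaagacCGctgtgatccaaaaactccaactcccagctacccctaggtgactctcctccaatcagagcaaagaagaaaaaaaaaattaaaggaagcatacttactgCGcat
Gadd45g: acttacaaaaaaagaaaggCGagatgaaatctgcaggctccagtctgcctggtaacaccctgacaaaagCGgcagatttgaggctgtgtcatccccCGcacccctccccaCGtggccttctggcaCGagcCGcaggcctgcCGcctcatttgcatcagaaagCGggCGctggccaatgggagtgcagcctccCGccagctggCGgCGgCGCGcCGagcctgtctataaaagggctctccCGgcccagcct
Id3: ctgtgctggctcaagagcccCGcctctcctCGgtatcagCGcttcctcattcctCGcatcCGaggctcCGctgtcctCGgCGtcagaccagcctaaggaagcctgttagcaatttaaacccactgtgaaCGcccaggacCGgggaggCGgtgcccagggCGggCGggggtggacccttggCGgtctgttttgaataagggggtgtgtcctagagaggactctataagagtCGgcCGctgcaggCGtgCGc
Hrct1, S100a3, and Gjb5 had the largest excess of H3K4me2 over H3K4me3.
Hrct1: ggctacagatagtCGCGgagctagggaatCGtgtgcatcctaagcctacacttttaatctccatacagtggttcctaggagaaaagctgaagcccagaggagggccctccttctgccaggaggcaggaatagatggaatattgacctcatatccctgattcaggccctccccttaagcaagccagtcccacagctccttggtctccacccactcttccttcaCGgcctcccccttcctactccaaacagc
S100a3: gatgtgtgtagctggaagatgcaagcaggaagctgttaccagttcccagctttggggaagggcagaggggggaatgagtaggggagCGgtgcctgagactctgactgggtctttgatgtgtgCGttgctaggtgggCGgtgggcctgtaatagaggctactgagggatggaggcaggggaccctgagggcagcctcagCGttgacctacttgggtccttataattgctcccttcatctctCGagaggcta
Gjb5: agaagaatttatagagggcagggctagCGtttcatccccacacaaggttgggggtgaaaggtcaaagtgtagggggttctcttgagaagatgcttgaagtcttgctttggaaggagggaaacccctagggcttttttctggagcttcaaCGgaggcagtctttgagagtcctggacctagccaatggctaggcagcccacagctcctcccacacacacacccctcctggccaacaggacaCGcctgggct
The first set held 14, 16, and 18 CG dinucleotides in these 250 bases, and the other set held 4, 5, and 3. They lie at chr13:14612992-14613241 (Psma2, plus strand), chr13:51846425-51846674 (Gadd45g, plus), chr4:136143572-136143821 (Id3, plus), chr4:43726948-43727197 (Hrct1, plus), chr3:90599965-90600214 (S100a3, plus), and chr4:127358165-127358414 (Gjb5, minus). The letters TATAAA occur on either strand in the runs of Gadd45g and Gjb5 only, among these 6.

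Levels are RPKM over each RefSeq transcript and 500 bp on either side, relative to the reads that fell in the listed transcripts, and are not divided by H3. Each mark has its own antibody, so an RPKM of 5 in one mark is not the same amount of methylation as 5 in the other, and a difference says which genes took the larger share of a mark's reads. Read counts summed over all transcript windows were 36865445, 29716371, and 48469734 for H3K4me3 and 36376215, 46797522, and 48504887 for H3K4me2. Windows of transcripts can overlap, so a read can be counted more than once in these sums. Across transcripts, Spearman correlations ran from 0.990 to 0.995 among the H3K4me3 libraries, from 0.991 to 0.997 among the H3K4me2 libraries, and from 0.781 to 0.823 between the marks. In fibroblast marker genes, 10 of 12 promoters had peaks of both marks in all libraries, and their summed RPKM was 95.2 to 99.97 for H3K4me3 and 72.5 to 74.1 for H3K4me2. Of 15 haematopoietic marker genes in the tables, none had an H3K4me3 peak at the promoter and 4 had H3K4me2 peaks only, with a summed RPKM of 3.64 to 3.75 for H3K4me3 and 6.83 to 7.74 for H3K4me2. Markers of other cell types were not all without H3K4me3. Peaks of both marks in all libraries were present at 4 of 15 epithelial, 4 of 14 endothelial, and 3 of 17 neural marker promoters. H3K4me2 peaks only were present at 3, 2, and 3 of them.

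Most genes that carried one mark carried the other, but in different proportion. Of 23043 genes, 10314 exceeded 1 RPKM in 3 or more libraries of the 6 and were tested on log2(RPKM + 0.1), a scale that understates differences at low RPKM. H3K4me3 was higher than H3K4me2 in 5271 genes (51.1% of those tested) and lower in 3497 (33.9%), by limma at a Benjamini-Hochberg adjusted p under 0.05. The difference reached 1 on the log2 scale, or 2-fold, in favour of H3K4me3 in 828 genes (8.03%) and in favour of H3K4me2 in 1242 (12%). The median difference over tested genes was 0.17 (quartiles -0.41 and 0.60), with a median standard error of 0.06, and 1546 genes did not pass the test.

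The excess of genes with H3K4me2 over H3K4me3 at the 2-fold limit depended on which genes entered the test. A gene that entered through 1 mark alone had to differ. Of the 1242 genes, 820 had no H3K4me3 library above 1 RPKM, whereas 117 of the 828 had no H3K4me2 library above 1. Among the 8050 genes above 1 RPKM in all 6 libraries, a set chosen after the data had been seen, H3K4me3 was higher in 4615 (57.3%) and lower in 1974 (24.5%). In that set the 2-fold limit was reached by 687 genes toward H3K4me3 (8.53%) and by 320 toward H3K4me2 (3.98%), the reverse order, and the median difference was 0.25. Centring each library on its median moved differences by 0.11 on the log2 scale and left 532 genes 2-fold toward H3K4me3. The share of 2-fold genes in that direction was then 27.5%, in place of 40.0%, and the share of all calls was 53.5%, in place of 60.1%.

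Psma2, which encodes an alpha subunit of the 20S proteasome, had the largest excess of H3K4me3 among protein-coding transcripts. Its H3K4me3 was 4.86, 4.80, and 5.06 RPKM, and its H3K4me2 0.751, 0.813, and 0.794 RPKM. The log2 difference was 2.50 ± 0.05 (SE, n = 3 libraries each, limma adjusted p = 2.8e-08), and the marks did not overlap. Mrpl32, a mitochondrial ribosomal protein gene that starts close to Psma2 on the other strand, had a difference of 2.19, and each transcript window of the pair holds the start of the other gene, so the 2 values are not independent. The deposited peaks at the Psma2 start were 2632 to 2733 bp wide for H3K4me3 in every library. For H3K4me2 they were 3098 and 2928 bp wide in replicates 2 and 3, and 1605 and 984 bp in replicate 1, where a gap divided them.

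Gadd45g, a stress-induced inhibitor of growth, had 53.1, 42.8, and 44.0 RPKM of H3K4me3 and 8.61, 7.95, and 9.05 RPKM of H3K4me2 (log2 difference 2.43 ± 0.09, limma adjusted p = 4.3e-08). Id3, an inhibitor of basic helix-loop-helix transcription factors, had 49.2, 42.8, and 45.1 RPKM of H3K4me3 and 9.64, 9.37, and 9.39 RPKM of H3K4me2, a difference of 2.26. Its relative Id1 had 72.2, 65.3, and 71.4 RPKM of H3K4me3 and 17.0, 16.8, and 16.8 RPKM of H3K4me2, a difference of 2.04. In each of these genes every H3K4me3 library exceeded every H3K4me2 library by more than 3-fold, although the peaks of H3K4me2 were the wider ones. At Id3 the peak spanned 5856 to 6189 bp for H3K4me3 and 10270 to 10874 bp for H3K4me2, and at Gadd45g 5360 to 5449 bp and 6759 to 7229 bp. The transcripts of Id3 (1571 bp) and Gadd45g (1800 bp) are shorter than these peaks.

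Actg1, which encodes cytoplasmic gamma actin, had 44.6, 41.5, and 42.4 RPKM of H3K4me3 and 11.5, 10.5, and 11.4 RPKM of H3K4me2 (difference 1.93 ± 0.06). One H3K4me3 peak of 7470 to 7790 bp covered its start in every library. H3K4me2 instead formed a pair of peaks in each library, whose nearer edge lay 156, 118, and 172 bp from the start. The other genes of the 10 with the largest excess were Pcbp1, encoding a poly(C)-binding protein, Tcp1, a subunit of the cytosolic chaperonin, Ncstn, a subunit of gamma-secretase, and Nrp, with differences of 1.88 to 2.22. All 10 had peaks of both marks at the promoter, 6 of the 10 windows hold the start of another gene, and mean H3K4me1 was 0.453 to 1.03 RPKM.

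Hrct1 stood at the other end. Its H3K4me3 was 0.737, 1.02, and 0.690 RPKM and its H3K4me2 8.25, 8.17, and 8.21 RPKM, a log2 difference of -3.20 ± 0.11 (SE, n = 3 each, limma adjusted p = 4.3e-08). H3K4me2 peaks of 3886 to 4436 bp covered the start in all libraries, H3K4me1 peaks of 8128 to 8192 bp covered it too, and no H3K4me3 library had a peak there. S100a3, a calcium-binding protein of the hair follicle, had 0.575, 1.08, and 0.609 RPKM of H3K4me3 and 6.28, 6.30, and 5.78 RPKM of H3K4me2 (difference -2.91 ± 0.18). Gjb5, a gap junction gene of skin and placenta, had 0.361, 0.471, and 0.436 RPKM of H3K4me3 and 3.29, 3.50, and 3.76 RPKM of H3K4me2 (difference -2.79 ± 0.09), with no promoter peak of either mark in any library, and an H3K4me2 peak 1943 to 2159 bp from the start in all libraries. The others of the 10 genes at this end were Foxh1, a Smad partner in Nodal signalling (-2.76), the hair keratin-associated gene Krtap1-5 (-2.63), the trypsin gene Prss2 (-2.61), Ascl2, an imprinted transcription factor gene of the trophoblast (-2.57), Cabp4, a calcium-binding protein of photoreceptors (-2.54), Gm11563 (-2.79), and Ly6f (-2.53). Of the 10, 6 promoters had H3K4me2 peaks only and 1 had both. Their mean H3K4me1 was 2.09 to 8.62 RPKM, and in 7 of the 10 it was above the mean H3K4me2.

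**Figure D1:**
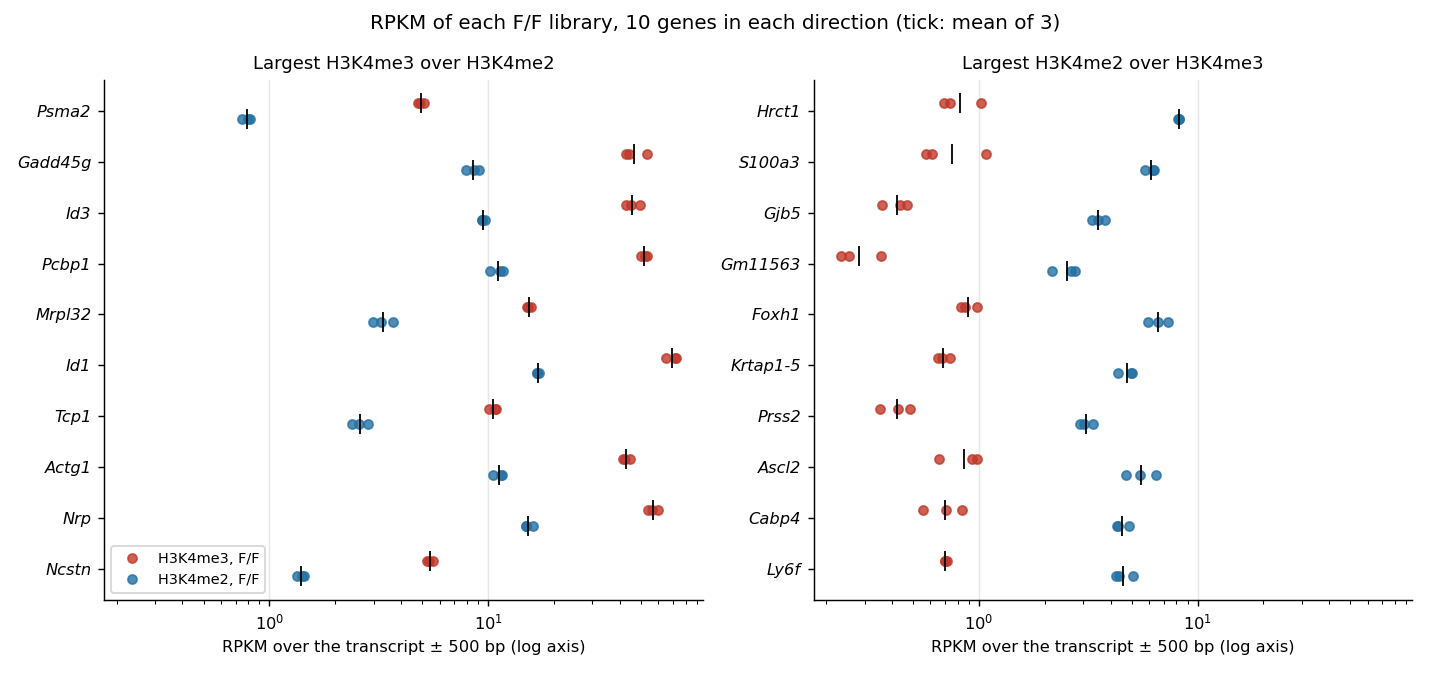
RPKM over the transcript ± 500 bp (log axis) of the 3 H3K4me3 and 3 H3K4me2 libraries of F/F cells, for the 10 protein-coding genes with the largest difference in each direction (points, libraries; ticks, means of 3). The genes were chosen for their difference, which fixes that the marks do not overlap, and all 10 on the right entered the test through H3K4me2. Mean H3K4me3 was 4.91 to 69.6 RPKM in the genes on the left and 0.282 to 0.892 RPKM in those on the right.

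Of the genes for ribosomes and proteasomes, over 90% were called with higher H3K4me3, beside 51.1% of all genes tested. In 81 tested ribosomal protein genes H3K4me3 was higher in 77 and lower in 1, with a median difference of 0.93 beside 0.17 over all genes tested, and all 81 were above 1 RPKM in all 6 libraries. Rpl5, of the large subunit, had 9.33, 9.70, and 9.80 RPKM of H3K4me3 and 3.00, 3.29, and 3.01 RPKM of H3K4me2 (difference 1.60). The exception was Rpl3l, a form known from striated muscle, with 1.17, 1.24, and 1.24 RPKM of H3K4me3 and 2.11, 2.02, and 2.25 RPKM of H3K4me2 (difference -0.76), and its promoter had no peak of either mark. The window of Rpl3l also holds the start of Msrb1, and the peak of each library in it lay 7474 to 7832 bp from the Rpl3l start. Mitochondrial ribosomal protein genes (70 of 76 tested higher, 4 lower, median 0.66) and proteasome genes (32 of 35 higher, 2 lower, median 0.72) are the other such lists. The subunit of the immunoproteasome, Psmb8, was one of the proteasome genes with lower H3K4me3, at 2.04, 2.06, and 2.03 RPKM, against 5.47, 5.01, and 5.68 RPKM of H3K4me2 (difference -1.35).

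Of cell cycle genes, H3K4me3 was higher in 25 of 32 tested (78.1%) and lower in 2 (median 0.46), and of numbered zinc finger genes higher in 192 of 269 (71.4%) and lower in 29 (median 0.40), beside 51.1% higher and 33.9% lower over all genes tested. Mcm4, of the replicative helicase, had 4.84, 4.95, and 5.08 RPKM of H3K4me3 and 2.02, 2.17, and 2.11 RPKM of H3K4me2 (difference 1.2), and E2f2, a transcription factor of S phase entry, had a difference of -0.53. In genes for the H3K4 methyltransferase complexes H3K4me3 was higher in 11 of 14 tested and lower in 1 (median 0.36), beside 51.1% and 33.9% over all genes tested. Cxxc1, whose product binds unmethylated CG and belongs to the SETD1 complexes, had a difference of 1.01, and Setd1b, the catalytic subunit of one of them, was the member with lower H3K4me3 (-0.54). The demethylase genes Kdm5a and Kdm5c had differences of 1.11 and 0.78, and were the 2 of 6 that were tested. Neither was above 1 RPKM in all 6 libraries, so the way they entered the test could favour a difference.

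Replication-dependent histone genes more often had the higher level in H3K4me2. H3K4me3 was lower in 47 of 64 tested (73.4%, beside 33.9% over all genes) and higher in 10, with a median difference of -0.48, and all 64 were above 1 RPKM in all 6 libraries. Of 66 promoters, 65 had peaks of both marks in every library. Hist3h2ba had 1.82, 1.96, and 1.52 RPKM of H3K4me3 and 6.92, 6.62, and 7.14 RPKM of H3K4me2 (difference -1.91), whereas Hist2h2aa1 had 34.8, 28.1, and 35.7 RPKM of H3K4me3 and 14.4, 13.2, and 14.1 RPKM of H3K4me2 (difference 1.23). Histone genes lie close together and some have near-identical copies, so reads can be shared among them and their windows include neighbours.

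Fibroblast genes included members of either direction, and the shares called are to be read beside 51.1% higher and 33.9% lower over all genes tested. In mesenchymal transcription factors H3K4me3 was lower in 12 of 19 tested (63.2%) and higher in 5 (median -0.45). Of their 13 genes above 1 RPKM in all 6 libraries, it was lower in 7 and higher in 5 (median -0.15). Over all such genes it was lower in 24.5% and higher in 57.3% (median 0.25). In the fibroblast matrix list H3K4me3 was higher in 9 of 25 tested and lower in 10 (median 0.01, and -0.10 after centring), in the actin and contractile list higher in 13 of 23 and lower in 5 (median 0.29), close to the share over all genes, and in the immediate early list higher in 16 of 24 and lower in 7 (median 0.47). Cyr61, a matricellular growth factor target, had 44.4, 39.0, and 40.0 RPKM of H3K4me3 and 13.8, 13.1, and 14.0 RPKM of H3K4me2 (difference 1.59). Vim, the intermediate filament gene of mesenchymal cells, had 21.4, 22.5, and 22.6 RPKM of H3K4me3 and 9.36, 10.3, and 9.75 RPKM of H3K4me2 (difference 1.17). The reverse held at Mmp2, a gelatinase, with 0.816, 0.809, and 0.80 RPKM of H3K4me3 and 2.21, 2.19, and 2.28 RPKM of H3K4me2 (difference -1.36), and at Cald1, caldesmon of the actin filament (-1.43). Thy1, a surface marker of fibroblasts and other cells, had 0.320, 0.282, and 0.280 RPKM of H3K4me3 and 1.25, 1.4, and 1.33 RPKM of H3K4me2 (difference -1.86). Its promoter had no peak of either mark, H3K4me2 peaks lay 3672 to 4534 bp inside the gene, and H3K4me1 was 2.74 to 3.11 RPKM. Mmp2 and Thy1 had no H3K4me3 library above 1 RPKM, so they entered the test through H3K4me2 and had to differ in that direction. Of the matrix list, 3 tested genes were 2-fold lower in H3K4me3 and 1 was 2-fold higher. Among its 20 genes above 1 RPKM in all 6 libraries these numbers were 0 and 1. Among immediate early genes, Jun (difference 1.42) and Egr3 (-1.74) were the extremes.

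For genes of other cell types and of development, the test was entered largely through H3K4me2. In the list of developmental transcription factors H3K4me3 was lower in 42 of 61 tested (68.9%) and higher in 13 (21.3%), with a median difference of -1.04. Over all genes tested it was lower in 33.9% and higher in 51.1%, with a median of 0.17. In the 32 members above 1 RPKM in all 6 libraries it was lower in 13 and higher in 13, with a median of -0.09. Over all 8050 such genes it was lower in 24.5% and higher in 57.3%, with a median of 0.25, so the list still lay toward H3K4me2. The chemokine list likewise had a median of -1.22 over 12 tested genes and of -0.37 over the 5 above 1 RPKM in all 6 libraries. Over all members, tested or not, 14 of 117 developmental factors, 3 of 34 chemokines, 10 of 101 keratin and keratin-associated genes, 6 of 28 imprinted genes, and 3 of 39 Hox genes had promoters with H3K4me2 peaks only. These are 12%, 8.82%, 9.90%, 21.4%, and 7.69% of the lists, beside 5.97% of all genes, and the chemokine and Hox shares rest on 3 genes each. Lists of fibroblasts' own genes held such promoters too. They were 1 of 12 fibroblast markers (8.33%), 2 of 24 mesenchymal transcription factors (8.33%), 2 of 32 matrix genes (6.25%), and 0 of 25 actin and contractile genes. Of 1101 olfactory receptor genes, 1090 had neither mark and 6 had H3K4me2 only.

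Single genes of these lists covered a wide range. Neurog2, a proneural factor, had 2.03, 1.43, and 1.57 RPKM of H3K4me3 and 9.60, 7.92, and 9.31 RPKM of H3K4me2 (difference -2.36), with peaks of both marks in all libraries. Ccl2, a monocyte attractant, had 0.462, 0.749, and 0.811 RPKM of H3K4me3 and 3.90, 3.92, and 4.34 RPKM of H3K4me2 (difference -2.45), and an H3K4me3 peak in replicate 3 only. Sox18, an endothelial factor, had 0.600, 0.696, and 0.633 RPKM of H3K4me3 and 3.30, 2.87, and 3.68 RPKM of H3K4me2 (difference -2.18), and no H3K4me3 peak. In these genes H3K4me3 was lower in every library, and in Sox4 and Cebpb it was higher in every library. Sox4, of the SOX factors, had 24.0, 24.3, and 22.8 RPKM of H3K4me3 and 11.1, 9.87, and 9.45 RPKM of H3K4me2 (difference 1.22). Cebpb, a factor of adipocyte differentiation and acute responses, had 27.3, 25.1, and 24.4 RPKM of H3K4me3 and 9.07, 7.37, and 8.09 RPKM of H3K4me2 (difference 1.64), whereas the fat cell gene Fabp4 had a difference of -1.51.

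The HoxD cluster held both patterns within 1 locus. Hoxd13, its most posterior gene, had 29, 31.4, and 31.0 RPKM of H3K4me3 and 10.7, 10.7, and 10.2 RPKM of H3K4me2 (difference 1.52 ± 0.05). Hoxd1, at the other end, had 0.583, 0.160, and 0.372 RPKM of H3K4me3 and 2.34, 1.91, and 2.39 RPKM of H3K4me2 (difference -2.40 ± 0.29). The window of Hoxd1 also holds the start of Haglr. Over the 16 tested Hox genes, H3K4me3 was higher in 6 (37.5%) and lower in 7 (median -0.10), beside 51.1% and 33.9% over all genes tested.

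The list of 414 genes that the study described as most damaged was also read. H3K4me3 was higher in 263, or 67.1% of its tested members, and lower in 75, or 19.1%, and 54 did not pass, with a median of 0.50, beside 51.1% higher and 33.9% lower over all genes tested, and since the study chose the list on cells of this series, the count is no independent evidence of a direction. Malat1, a nuclear non-coding RNA, had 41.4, 50.3, and 47.2 RPKM of H3K4me3 and 16.8, 16.0, and 16.7 RPKM of H3K4me2 (difference 1.48). Thbs1, of the matrix, had a difference of 0.87. Egr1, an immediate early factor, had 9.90, 10.8, and 8.20 RPKM of H3K4me3 and 12.7, 11.4, and 12.3 RPKM of H3K4me2 (difference -0.33, limma adjusted p = 0.0093), so that H3K4me3 was below H3K4me2 in all libraries of this gene. The differences of Ctgf (0.39) and Btg2 (0.38) changed sign under quantile normalization.

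**Figure D2:**
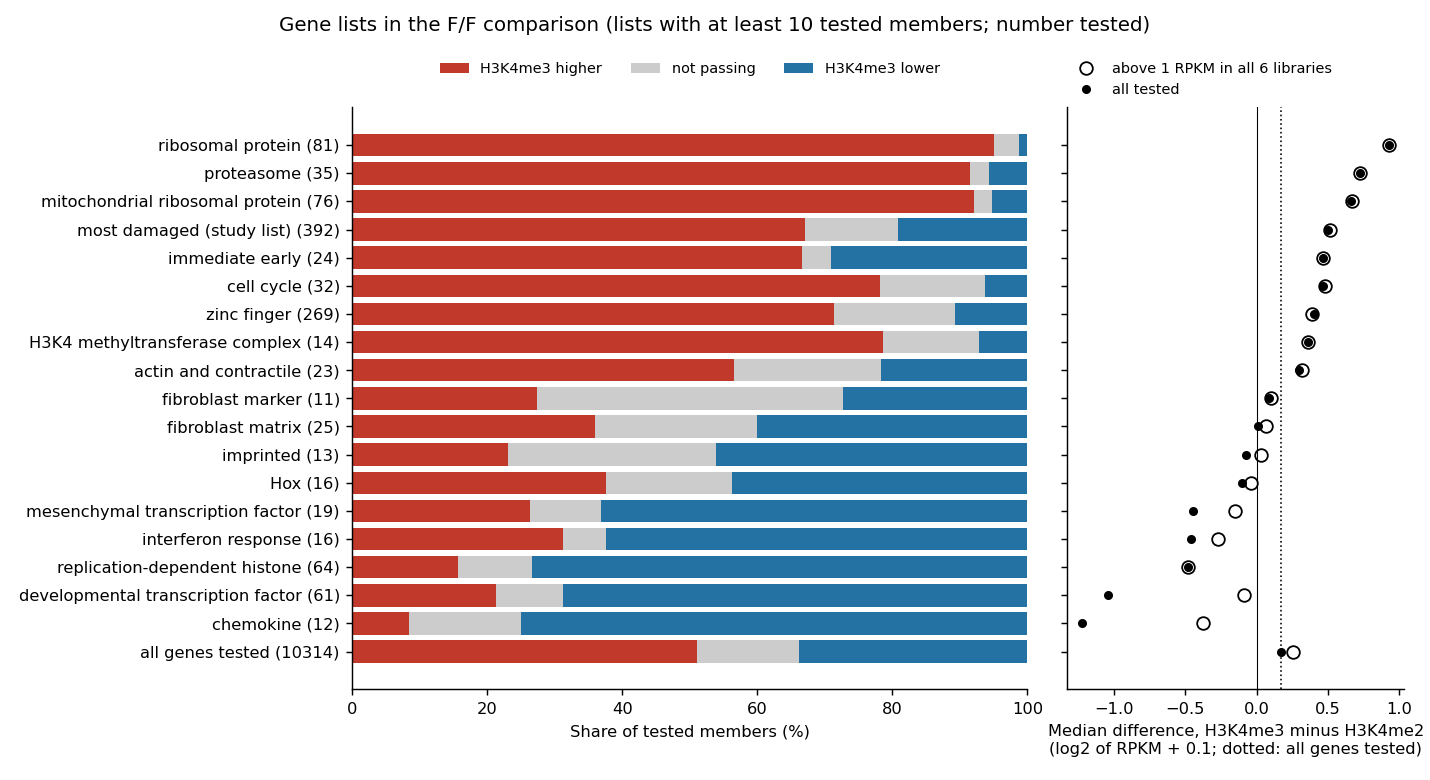
Left, share of the tested members of each list in which H3K4me3 was higher, did not pass, or was lower (limma adjusted p under 0.05). Right, median log2 difference, H3K4me3 minus H3K4me2, over all tested members (filled) and over those above 1 RPKM in all 6 libraries (open). Ribosomal protein genes lie at 0.93 by either count, whereas developmental transcription factors lie at -1.04 and -0.09, beside 0.17 and 0.25 for all genes.

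Peaks of H3K4me2 were more numerous and extended far beyond promoters, and those of H3K4me3 lay nearly all within them. MACS peaks, for which libraries of both marks with the same replicate number had 1 H3 library as control, numbered 18158, 17545, and 18701 for H3K4me3 and 66779, 62100, and 70437 for H3K4me2. They covered 42.4 ± 1.9 Mb for H3K4me3 and 125.6 ± 7.3 Mb for H3K4me2 (SD, n = 3 each), and their median width was 2164 ± 84 bp and 1415 ± 93 bp. The peak held a TSS, or its nearest edge lay within 1 kb of one, in 66.2 ± 1.6% of H3K4me3 peaks and 22.9 ± 1.3% of H3K4me2 peaks. Over 5 kb from any TSS lay 28.5 ± 1.3% of H3K4me3 peaks and 69.2 ± 1.0% of H3K4me2 peaks. For each of these measures the marks did not overlap, and the exact two-sided permutation p was 0.1, the smallest that 3 libraries against 3 allow.

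A peak of the other mark overlapped 97.3 ± 0.2% of H3K4me3 peaks and 27.2 ± 1.0% of H3K4me2 peaks. Within 1 kb of a TSS the shares were 99.7 ± 0.05% for H3K4me3 and 84.6 ± 0.6% for H3K4me2, and over 5 kb away 91.7 ± 0.9% and 9.75 ± 0.10%. H3K4me2 peaks over 5 kb from a TSS without H3K4me3 numbered 41529 ± 3162 a library, or 62.5 ± 0.9% of all H3K4me2 peaks, and 88.5 ± 1.1% of them overlapped a peak of H3K4me1. Distal H3K4me3 peaks without H3K4me2 numbered 428 ± 27, and 1.35 ± 0.64% of them overlapped H3K4me1. H3K4me2 peaks within 1 kb of a TSS without H3K4me3 numbered 2332 ± 91, of which 52.5 ± 2.6% overlapped H3K4me1.

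Most of these contrasts depended on the number of peaks called. When only the 17545 highest-scoring peaks of each library were kept, 67.9 ± 0.3% of H3K4me3 peaks and 67.1 ± 0.5% of H3K4me2 peaks lay within 1 kb of a TSS (exact p = 0.2), and 84.5 ± 0.6% and 85.5 ± 0.5% overlapped the other mark (exact p = 0.2). Over 5 kb from a TSS the overlap was still higher for H3K4me3, at 65.3 ± 0.9%, against 56.1 ± 0.8% for H3K4me2 (exact p = 0.1). The median width was then 2213 ± 86 bp for H3K4me3 and 3080 ± 133 bp for H3K4me2, so the order of the widths turned round. Among promoter peaks H3K4me3 was the narrower without that limit as well, at 2640 ± 94 bp, against 2896 ± 136 bp for H3K4me2 (exact p = 0.1). Where a promoter had peaks of both marks, 4.29 ± 1.16% of promoters had more than 1 H3K4me3 peak and 13.1 ± 1.3% more than 1 H3K4me2 peak. A peak covered the TSS itself in 96.6 ± 0.7% for H3K4me3 and 95.5 ± 0.6% for H3K4me2.

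**Figure D3:**
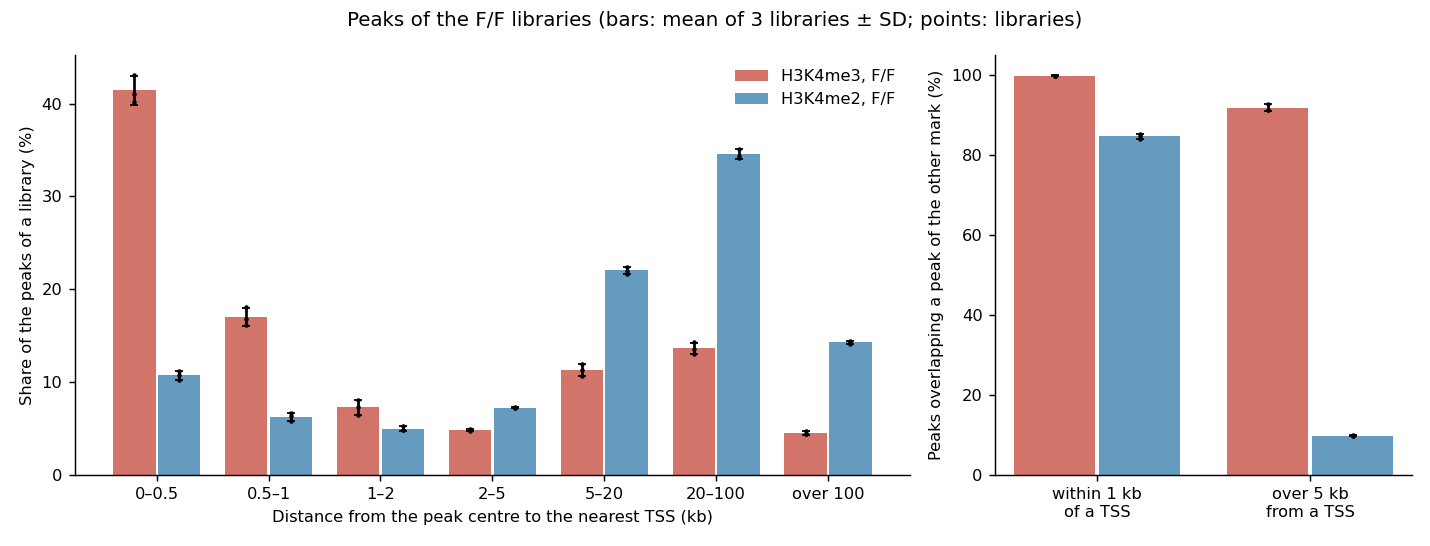
Left, share of the peaks of a library by distance from the peak centre to the nearest TSS. Right, share of peaks that overlap a peak of the other mark, within 1 kb of a TSS and over 5 kb from any. Distances on the right are from the nearest edge of the peak. Bars are means of 3 libraries with SD, and points are libraries. Over 5 kb away, 91.7% of H3K4me3 peaks and 9.75% of H3K4me2 peaks met the other mark.

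By promoter (TSS ± 1 kb of the kept transcript), 12250 of 23043 genes had peaks of both marks in all 6 libraries and 8264 had none. H3K4me3 without H3K4me2 was found at 11 promoters (0.0477%), H3K4me2 without H3K4me3 at 1375 (5.97%), and 1143 were mixed, with a peak in some libraries of a mark. The balance of the unpaired classes follows the number of peaks too. With 17545 peaks a library, 359 promoters had H3K4me3 only and 58 had H3K4me2 only, and of these, 9 and 52 belonged to the classes drawn from all peaks.

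Most of the 1375 promoters with H3K4me2 only had that state in libraries that took no part in the choice. In FC/FC cells 93.6 ± 0.7% of them had an H3K4me2 peak and 5.62 ± 2.79% an H3K4me3 peak (SD, n = 3 libraries each). H3K4me1 peaks of F/F cells were present at 52.8 ± 3.4% of them, at 80.2 ± 5.6% of promoters with both marks, and at 4.30 ± 0.53% of those with neither. Over the whole transcript, median RPKM in this class was 0.228 ± 0.004 for H3K4me3, 0.450 ± 0.012 for H3K4me2, and 0.749 ± 0.030 for H3K4me1. In the class with both marks it was 2.02 ± 0.04, 1.86 ± 0.004, and 1.07 ± 0.01. In genes with neither peak, H3K4me3 was the higher of the pair, at 0.147 ± 0.006 RPKM, against 0.0769 ± 0.0042 for H3K4me2. Both values are close to the 0.1 added before taking logs and are not divided by H3. Whether they reflect methylation or the background of the libraries was not tested.

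The authors' mark of an active gene, which they set from γH2AX, RNAPII, and nascent RNA levels and from other filters, was carried by 27 of the 1375 genes with H3K4me2 only (1.96%), by 28.6% of those with both marks, and by 15.7% of all genes. Among tested genes it was carried by 44.2% of the 828 with 2-fold more H3K4me3 and by 9.50% of the 1242 with 2-fold more H3K4me2, beside 34.0% of all genes tested. Median H3K4me1 was 0.820 ± 0.019 RPKM in the set of 828 genes, 1.92 ± 0.08 RPKM in the set of 1242, and 1.26 ± 0.02 RPKM over genes tested. Since 820 of the 1242 genes entered the test through H3K4me2 alone, the genes above 1 RPKM in all 6 libraries were read as well. There the mark of activity was carried by 52.0% of the 687 genes with 2-fold more H3K4me3 and 17.5% of the 320 with 2-fold more H3K4me2, beside 40.9% of the 8050. Median H3K4me1 was 0.919 ± 0.022 RPKM in those 687 genes, 2.41 ± 0.10 RPKM in those 320, and 1.29 ± 0.02 RPKM over the 8050.

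Among genes with H3K4me2-only promoters and the highest H3K4me2, most had an H3K4me3 peak elsewhere in the transcript window. 1700067K01Rik had 7.68, 6.78, and 7.28 RPKM of H3K4me3 and 12.7, 11.8, and 13.0 RPKM of H3K4me2 (difference -0.78), and Tnfsf13, a cytokine gene of the TNF family, had 4.04, 3.81, and 3.64 RPKM of H3K4me3 and 10.1, 9.47, and 10.1 RPKM of H3K4me2 (difference -1.35). Of the 8 protein-coding genes with the highest H3K4me2 in the class, Hrct1 alone had no H3K4me3 peak within the transcript window. In the other 7 (those 2, Ccdc106, Ak1, Rhbdl1, Hnrnpf, and Fbxl22) an H3K4me3 peak met the window beyond 1 kb of the start of the longest transcript. Whether it belongs to another start of the gene or to a neighbour was not tested. Hnrnpf, an RNA-binding protein, had more H3K4me3 than H3K4me2, at 8.11, 8.30, and 7.66 RPKM of H3K4me3 and 6.91, 7.46, and 6.84 RPKM of H3K4me2 (difference 0.18, limma adjusted p = 0.016). That call was lost on centring (adjusted p = 0.31). When every start of a symbol was used, the class held 1367 genes, and 1322 of them were among the 1375.

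The 11 promoters with H3K4me3 only were Asmt, Clec2g, Erdr1, Gm14139, Gm1943, Gm2381, Gm6402, Gm6654, Gm7102, Pcdhgb5, and Rplp2-ps1. Asmt, of melatonin synthesis, had 1.49, 1.55, and 1.76 RPKM of H3K4me3 and 1.07, 1.11, and 1.08 RPKM of H3K4me2 (difference 0.51). Rplp2-ps1, named as a ribosomal protein pseudogene, had 1.01, 1.11, and 1.01 RPKM of H3K4me3 and 0.316, 0.246, and 0.203 RPKM of H3K4me2 (difference 1.69). The 4 tested members were these, Gm6654 (1.12), and Pcdhgb5, a clustered protocadherin in which H3K4me3 over the transcript was lower (-0.51). Reads of pseudogenes and multigene families can come from near-identical copies. In FC/FC cells 90.9 ± 9.1% of the 11 had an H3K4me3 peak and 12.1 ± 13.9% an H3K4me2 peak.

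**Figure D4:**
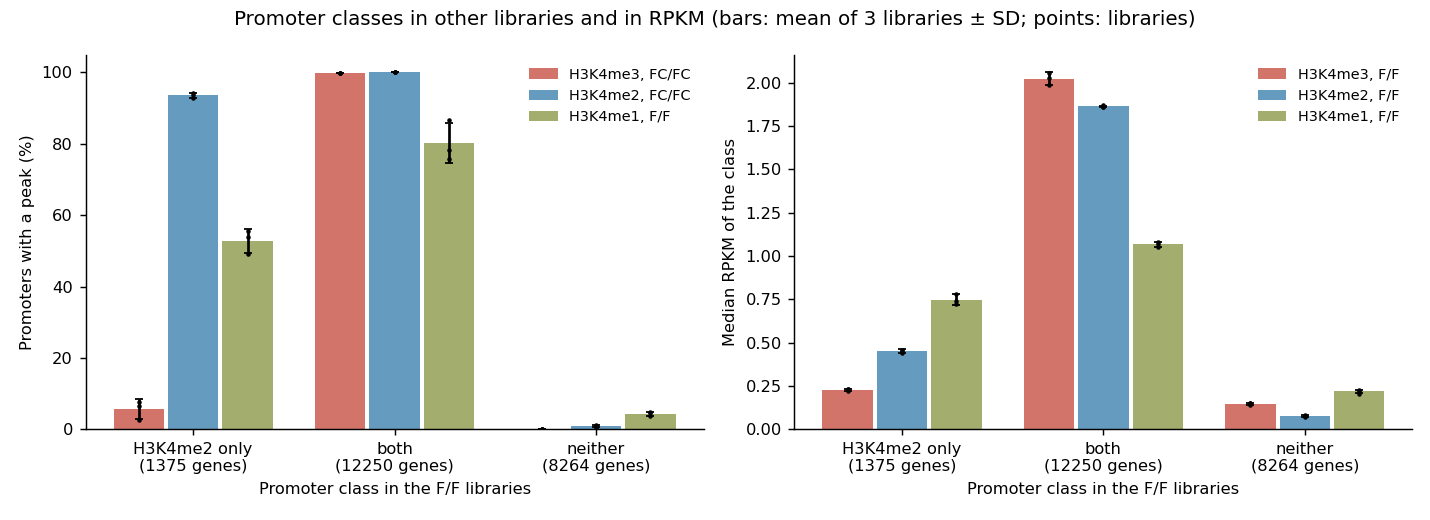
Left, share of promoters with a peak in libraries that did not set the classes (H3K4me3 and H3K4me2 of FC/FC cells, H3K4me1 of F/F cells). Right, median RPKM of the class in the F/F libraries. Bars are means of 3 libraries with SD, and points are libraries. H3K4me2-only promoters had an H3K4me3 peak in 5.62% and an H3K4me2 peak in 93.6% of cases in FC/FC cells.

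Promoters of genes with more H3K4me3 held more CG. In the 300 bases from 250 before to 50 after the start, the median number of CG was 24 in the 828 genes with 2-fold more H3K4me3, 11 in the 1242 with 2-fold more H3K4me2, and 21 over genes tested. By promoter class it was 9 with H3K4me2 only, 22 with both marks, 3 with neither, and 13 over all genes. Tested genes with 0 to 4 CG (590 genes) had a median difference of -0.94, those with 5 to 9 (928) of -0.37, those with 10 to 19 (3033) of 0.19, those with 20 to 29 of 0.31, and those with 30 or more (2352) of 0.21. The 2-fold limit toward H3K4me2 was passed by 48.3% of genes in the lowest of these bins and 6.46% in the highest, and toward H3K4me3 by 1.53% and 8.76%.

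Among genes above 1 RPKM in all 6 libraries the slope was less steep, with medians of -0.13 (288 genes), -0.04 (616), 0.25 (2479), 0.33 (2807), and 0.28 (1857). In the lowest bin 15.3% were then 2-fold toward H3K4me2, and in the highest 2.42%. The letters TATAAA, searched on both strands, occurred in 8.10% of promoters of the 828 genes and 11.2% of those of the 1242, beside 7.08% over genes tested and 12.9% over all genes. They occurred in 12.2% with H3K4me2 only, 6.30% with both marks, and 23.0% with neither. A match is a description of letters only. By quartile of transcript length, the median difference was 0.10 for the shortest genes (up to 6360 bp), 0.24, 0.26, and 0.01 for the longest (29506 bp and more), and after centring it was -0.01, 0.13, 0.15, and -0.10, so that the sign turned at both ends. Without centring, the medians of genes above 1 RPKM in all 6 libraries were 0.28, 0.31, 0.31, and 0.04. The shortest genes then lay close to the middle quartiles, and only the longest stayed lower.

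**Figure D5:**
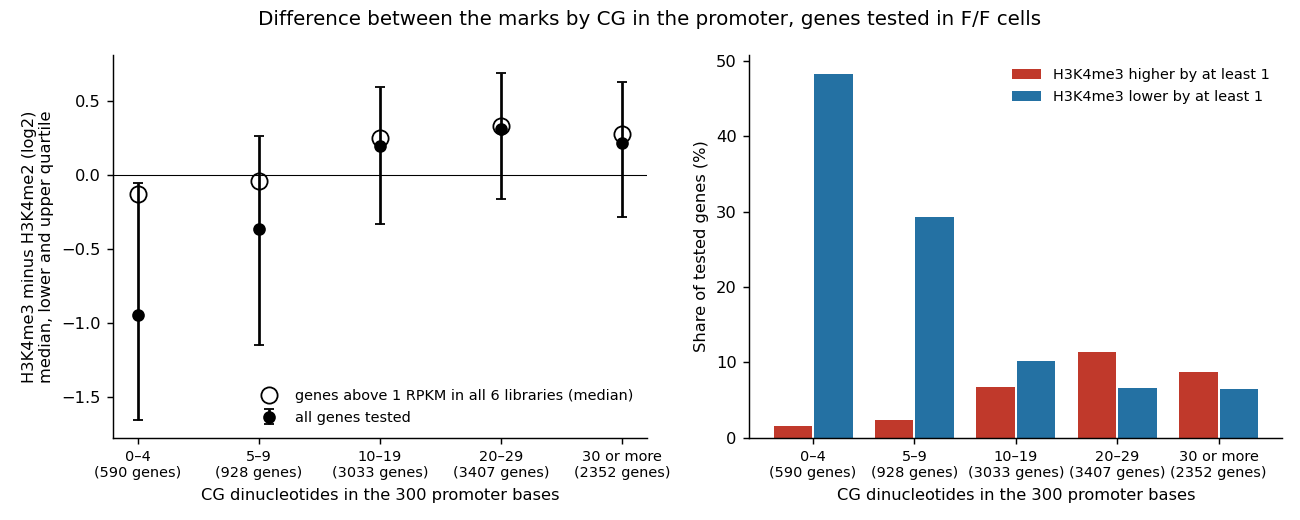
Left, median log2 difference (H3K4me3 minus H3K4me2, with quartiles) of tested genes by the number of CG dinucleotides in 300 promoter bases (filled), with the medians of genes above 1 RPKM in all 6 libraries (open). Right, share of tested genes in each bin that were 2-fold higher or lower in H3K4me3. The median lies at -0.94 in the bin with the least CG and at 0.31 in the bin of 20 to 29.

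The differences between the marks were found again in FC/FC libraries. There H3K4me3 was higher in 45.3% and lower in 32.9% of the same 10314 genes, against 51.1% and 33.9% in F/F cells. The 2-fold limit was reached toward H3K4me3 in 500 (4.85%) and toward H3K4me2 in 1144 (11.1%). All 828 and all 1242 genes kept their sign. Of them, 488 and 1114 again differed by at least 2-fold in the same direction, counted by size alone without a limit on the FC/FC adjusted p. Psma2 had a difference of 2.20 in FC/FC and 2.50 in F/F cells, Gadd45g of 2.45 and 2.43, Hrct1 of -3.26 and -3.20, and Hoxd1 of -1.85 and -2.40.

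Whether MLL2 excision with tamoxifen altered the difference between the marks was tested as an interaction of mark and genotype over 12 libraries. No gene passed with limma (lowest adjusted p = 0.30), and 987 (9.57%) had an unadjusted p under 0.05. Limma-voom on the recovered reads also called 0, with 1081 under 0.05 unadjusted. The interaction had a median of -0.05 (quartiles -0.13 and 0.04). Leaving out a library never gave a call, but the unadjusted number was 2074 without H3K4me2 FC/FC replicate 1, the library with the H3K4me1 antibody number, 541 without H3K4me2 FC/FC replicate 2, and 637 and 581 without H3K4me2 F/F replicates 1 and 3.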

How the data were processed

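ChIP-seq libraries of H3K4me3 and H3K4me2 in F/F cells were compared (n = 3 each), with 18 libraries of the series read in all. The submitters' processing notes name CASAVA 1.4, BWA 0.7.10 for alignment, and the mm10 build. RPKM were deposited for 28748 RefSeq transcripts, each extended by 500 bp on both sides. Deposited peaks came from MACS 1.4.2, library by library, with the H3 library of the same replicate number as control, and carry a score on the log10 scale of the p-value (at least 50.02). Every RPKM value gave whole reads within 0.01. The authors' true-or-false mark of active genes was deposited in the RPKM tables.

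Transcripts under 250 bp (1352) were left out, and the longest was kept per symbol (23043 genes). For 10314 genes, which exceeded 1 RPKM in 3 or more libraries of 6, limma 3.58.1 in R 4.3.3 compared log2(RPKM + 0.1), with a trend and Benjamini-Hochberg adjustment. One value per library was compared by exact permutation. P-values measure the spread between these libraries. Read counts summed over the transcript windows, which can overlap, were 29716371 to 48504887 a library. Deviations of libraries that share an H3 library correlated at r = 0.43, 0.50, and 0.13, and those of other pairs at -0.47 to 0.23. The lowest of the sharing pairs was thus below the highest of the others. Libraries that share an H3 library were fitted as pairs as an alternative. Promoter bases were read from the RefSeq GRCm38.p6 genome at the start of the kept transcript (23028 genes, samtools 1.23.1), since the RefSeq promoter table held 17163 of the genes. In 14303 with the same start the letters were identical. Python 3.11.15 served the other steps, with pandas 2.3.3 for tables, scipy 1.17.1 for permutation, numpy 2.4.6, and, for plots, matplotlib 3.10.9.

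Genes named were the 10 protein-coding transcripts with the largest difference in each direction, 8 of highest level in each one-mark promoter class, the extremes of each list, and the first 10 of the study's list of most damaged genes, of which 1 is not reported here. The members and lists were chosen with earlier results of these data known. Alternatives were another pseudocount, no filter, centring, quantile normalization, limma-voom on the recovered reads, another transcript, peak limits, and each library left out.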

Additional observations from a re-analysis of the deposited data

How the results depend on the processing

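Of 83 named genes tested, 76 kept their direction and their side of the threshold under all 16 alternatives. Of 1326 such values, 1307 did so, 3 lost the call, 4 gained it, and 12 changed sign. Numbers of genes moved by more than 1.5 times without a filter on RPKM (11390 higher, 7263 lower, 1960 lower by 2-fold), with a pseudocount of 1 (327 and 436 by 2-fold), on centring (532 higher by 2-fold), and in genes above 1 RPKM in all 6 libraries, added after seeing the data (1974 lower, 320 by 2-fold). With a replicate block by shared H3 library, as the pairing of the deviations allows, 5397 genes were higher and 3622 lower, and the 2-fold numbers stayed at 828 and 1242. Leaving out each library gave 794 to 865 genes higher and 1205 to 1281 lower by 2-fold, 5051 to 5342 and 3292 to 3602 at any size, 11 to 14 and 1392 to 1569 promoters with H3K4me3 only and H3K4me2 only, and 541 to 2074 genes (987 with all libraries) with an unadjusted interaction p under 0.05. With equal numbers of peaks the difference in width was -867 bp, in the share near a TSS 0.788 percentage points (exact p = 0.2), and in overlap -0.956, with 359 H3K4me3-only and 58 H3K4me2-only promoters, and peaks with a score of at least 100 gave 5 H3K4me3-only promoters. The number of peaks has no value at an equal number. Signs changed for Krt10 (-0.049 centred, -0.22 by quantiles, -0.0092 to 0.15 with each library left out), Sgk1 (-0.030, -0.042, and -0.052 to 0.21 in the same settings), 3110039I08Rik (-0.072 centred, -0.021 to 0.082 with each library left out), and, by quantiles alone, Syp (0.032), Hnrnpf (-0.059), Ctgf (-0.47), and Btg2 (-0.15). The cause was not tested. A promoter without a peak may carry a mark below the limit of the peak caller.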
